A study of Mus musculus with 2 samples.

Results

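The genes described here act in G2 phase and mitosis. They were taken from a list of 40 gene names, and every probe of both arrays whose gene name, or its current synonym, was on that list was kept. All 40 genes were found among the 27666 gene names on the array, with 75 of its 41174 probes. Of these, 73 probes and 39 genes were tested, beside 22623 probes and 15111 genes in all.

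The study compared immature B cells from mouse bone marrow on 2 Agilent arrays with 2 colours. The mice of both groups carried 3-83Igi, a receptor for antigen inserted into the immunoglobulin loci, whose ligands include H-2b class I proteins. Autoreactive cells came from BALB.B mice (labelled 3-83Igi, Rag1-/-, H-2b), which carry the antigen, and non-autoreactive cells from BALB/c mice (3-83Igi, H-2d), which do not. All mice were untreated, and no age is given in the sources used here. Pooled cells were sorted as B220+ and negative for CD23, CD43 and IgD, with no stain for IgM. The sort therefore does not by itself separate immature B cells from earlier CD43- B cell precursors, some of which divide. Each array set a pool of autoreactive cells (Cy5) directly against non-autoreactive cells (Cy3), with no dye swap. Strain, H-2 haplotype, dye and, per the labels, the Rag1 disruption all follow the groups and cannot be told apart from autoreactivity. The labels number the autoreactive pools only. The design text names 2 non-autoreactive replicates, but whether these are separate pools is not stated. P-values and standard errors thus rest on no more than the spread between these 2 arrays, which may be technical. For each probe, limma draws this spread toward that of all tested probes.

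Cells that leave G2 switch on cyclin B and Cdk1, condense their chromosomes, build a spindle and, once every chromosome is attached, destroy securin and cyclins through the anaphase promoting complex. Most genes of this programme are repressed in resting cells and switched on late in the cycle by the MuvB complex with B-Myb and FoxM1. The complex binds a short element called CHR, often next to CCAAT boxes bound by NF-Y. In bone marrow, large pre-B cells divide rapidly and then stop, and immature B cells are largely at rest. In a population, fewer dividing cells and less RNA per dividing cell cannot be told apart.

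Promoter letters are a feature that the choice of genes did not use. RefSeq promoter windows of GRCm38.p6, reaching from 250 bases before to 50 after the start, were available for 34 of the 40 genes. The CHR letters TTTGAA, on either strand, stood in the windows of 25 of 34 members (73.5%), against 20.2% of 27025 genes. The letters CCAAT, on either strand, stood in 29 of 34 (85.3%), against 41.1% of all genes, and both motifs in 23 of 34 (67.6%), against 8.97%. An E2F motif was searched as TTGGCGC, as TTCCCGC and as TTCGCGC, on either strand. At least 1 of them stood in the windows of 6 of 34 members (17.6%), against 9.20% of all genes. Matches of different motifs overlapped in 4 of the 37 member windows. The 150 bases before the start are shown for 6 members, with matches to CHR and to the CCAAT box on either strand in capitals. A CHR match on the opposite strand reads TTCAAA here. The box on the opposite strand reads, in the same way, ATTGG. Top2a, Mki67, Ube2c and Cdc20 carry both motifs, Nek2 is the called member and has CCAAT alone, and Mad2l1 has neither; all 6 were picked with their ratios known.
Top2a (chr11:99024190-99024339, minus strand): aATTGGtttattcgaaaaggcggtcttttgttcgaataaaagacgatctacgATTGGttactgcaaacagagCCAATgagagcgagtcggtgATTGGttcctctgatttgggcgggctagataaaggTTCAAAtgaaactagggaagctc
Mki67 (chr7:135716380-135716529, minus strand): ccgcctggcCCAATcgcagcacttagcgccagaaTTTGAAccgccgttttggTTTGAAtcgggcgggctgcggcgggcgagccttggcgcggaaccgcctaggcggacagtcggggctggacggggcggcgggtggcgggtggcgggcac
Ube2c (chr2:164769779-164769928, plus strand): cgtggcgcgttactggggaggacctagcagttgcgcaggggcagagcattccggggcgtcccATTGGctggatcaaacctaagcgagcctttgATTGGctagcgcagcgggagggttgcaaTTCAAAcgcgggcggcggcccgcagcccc
Cdc20 (chr4:118437344-118437493, minus strand): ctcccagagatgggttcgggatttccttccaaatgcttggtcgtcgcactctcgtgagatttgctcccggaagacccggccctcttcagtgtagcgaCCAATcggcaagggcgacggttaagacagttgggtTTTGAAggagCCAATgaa
Nek2 (chr1:191821323-191821472, plus strand): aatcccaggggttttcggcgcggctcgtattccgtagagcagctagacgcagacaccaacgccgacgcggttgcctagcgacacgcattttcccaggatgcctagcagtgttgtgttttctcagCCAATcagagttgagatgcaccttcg
Mad2l1 (chr6:66535071-66535220, plus strand): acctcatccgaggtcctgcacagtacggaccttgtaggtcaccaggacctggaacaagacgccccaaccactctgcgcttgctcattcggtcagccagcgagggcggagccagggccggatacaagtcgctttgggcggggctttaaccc
Over these 150 bases the letters range from 4 CCAAT matches and 1 CHR match in Top2a to none in Mad2l1. A match is a description of letters and was not shown to be a site.

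Each array had 43379 gene spots. By channel, the share well above background ranged from 54.1% to 57.4%, and none was saturated. Precision is limited by having 2 arrays. H2-Ea, a class II gene silent in the H-2b haplotype, had log2 ratios of -5.22 and -5.26, and the 3 probes of Rag1 had mean ratios between 1.04 and 4.14, higher in the autoreactive channel. Rag1 is the disrupted gene and is not low in the cells labelled Rag1-/-; whether its probes lie in the disrupted part is not stated, so this checks nothing about that label, and these data do not settle which channel carried the disruption. The sort was against CD23, and its gene Fcer2a was well above background with a ratio of -1.71.

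Most of the mitotic genes had less signal in the autoreactive than in the non-autoreactive channel, by a modest amount that was larger on array 2 after loess, while median centring on all gene spots in its place left every ratio positive. The median log2 ratio (autoreactive over non-autoreactive) of the 39 genes, each by its brightest tested probe, was -0.15 on array 1 and -0.53 on array 2, with -0.35 for the mean of both. The same medians over all 15111 genes were 0.0087, -0.010 and -0.0018. The mean ratio was below 0 for 34 of 39 members, against 50.3% of all genes. It was below 0 on both arrays for 26, against 35.4%. Cenpa alone was above 0 on both, against 36.1% of all genes. Single genes seldom passed the test: limma, with Benjamini-Hochberg adjustment over all probes and a threshold of 0.05, called 1 member lower, Nek2, and 0 higher. Of all genes, 2.61% were called lower and 3.48% higher, so the share called among the members was near the background. Without adjustment, 17 members had a p under 0.05 on the lower side and 0 on the higher side, against 12.3% and 12% of all genes. In 23 members both autoreactive channel levels lay below both non-autoreactive ones, against 22.4% of all genes.

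**Figure D1:**
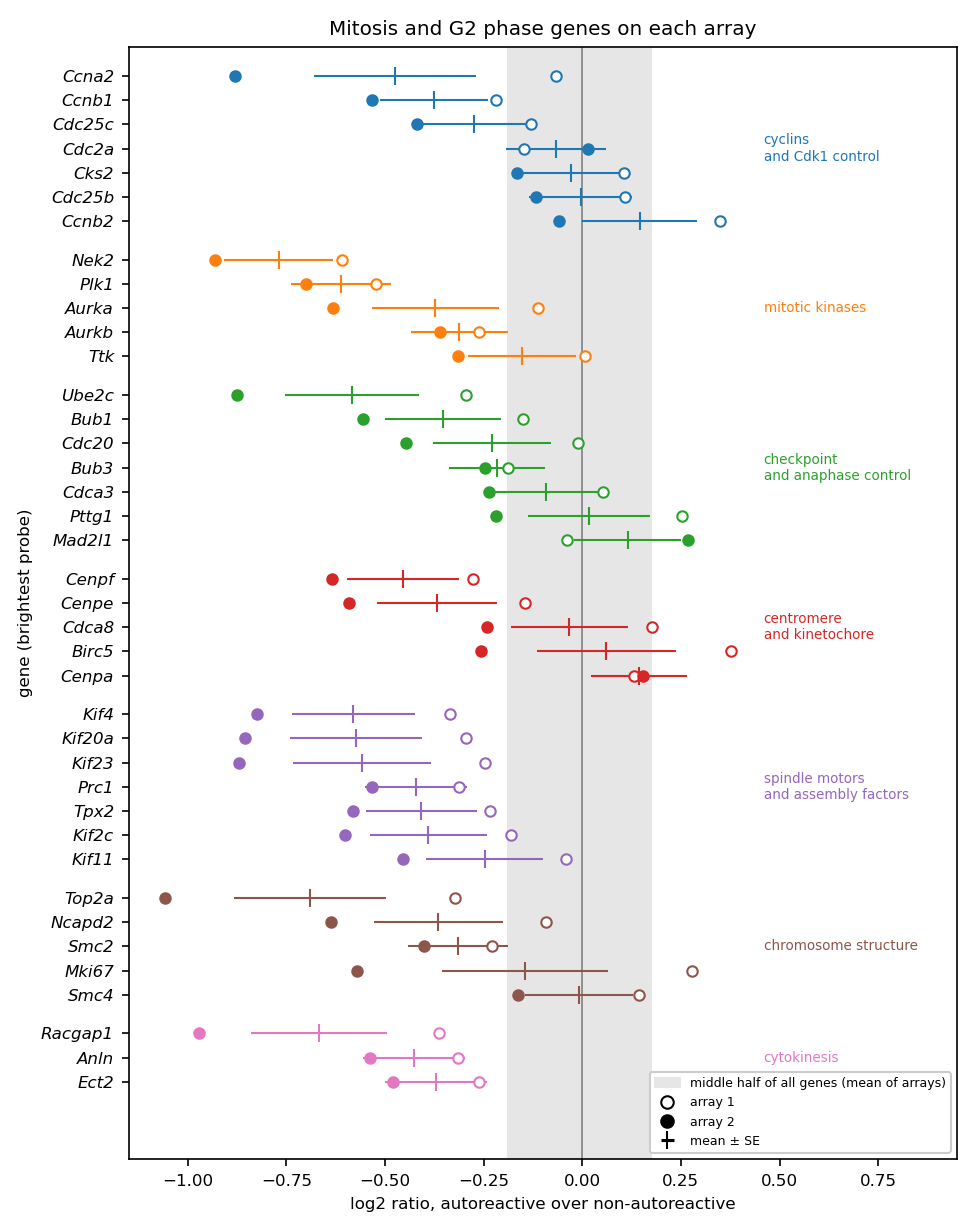
The horizontal axis is the log2 ratio of autoreactive over non-autoreactive cells for the brightest tested probe of 39 genes, grouped by role. Open circles are array 1, filled circles array 2, ticks with bars the mean and limma standard error (n = 2 arrays), and the grey band runs from the 25th to the 75th percentile of all genes (-0.19 to 0.17). The filled circle lies left of the open circle for 36 of 39 genes, and only Cenpa has both circles right of 0.

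Nek2, a kinase that splits the centrosome pair before the spindle forms, was the called member. Its log2 level was 13.19 and 12.86 in the autoreactive channels of arrays 1 and 2, and 13.80 and 13.79 in the non-autoreactive ones. Both autoreactive levels lay below both others, and the ratio was -0.77 ± 0.14 (limma SE, n = 2 arrays), a 1.71-fold lower signal (limma adjusted p = 0.0336). The call was lost with the deposited ratios (adjusted p = 0.083), without the filter on dim probes (0.060), with separate channels (0.132) and with both median centrings, of which the one on all gene spots gave a ratio of 0.14. Plk1, the kinase that drives mitotic entry and centrosome maturation, had levels of 14.67 and 14.52 against 15.20 and 15.22. The groups did not overlap, and its ratio of -0.61 ± 0.13 missed the threshold (limma adjusted p = 0.0515). Of the other kinases, Aurka, which acts at centrosomes, had ratios of -0.11 and -0.63 on arrays 1 and 2. Aurkb, the kinase of the chromosomal passenger complex, had -0.26 and -0.36, and the checkpoint kinase Ttk 0.0079 and -0.31. All 5 kinases had a mean below 0, against 50.3% of all genes, with a median of -0.37.

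Cyclins and the control of Cdk1 had a median of -0.07 over 7 genes, with 3 of them below 0 on both arrays, against 35.4% of all genes. Relative to equally bright probes their median was -0.30. Ccna2 (cyclin A2, which acts in S and G2 phase) had levels of 15.36 and 15.14 in the autoreactive channels and 15.42 and 16.02 in the others. Its ratio of -0.47 ± 0.20 (limma adjusted p = 0.235) rests on array 2, where it was -0.88, against -0.07 on array 1. Of the B-type cyclins, Ccnb1 had ratios of -0.22 and -0.53, with its 3 probes between -0.38 and -0.34, while Ccnb2 had 0.35 and -0.06. Cdc2a, whose current symbol is Cdk1 and which encodes the mitotic kinase itself, had -0.15 and 0.01. Levels of Cdc2a moved more between arrays than between groups: 12.59 and 13.25 in the autoreactive channels, 12.74 and 13.23 in the others. The phosphatases that activate Cdk1 differed in size, with -0.28 ± 0.13 for Cdc25c and -0.0043 ± 0.13 for Cdc25b. The 3 probes of Cdc25b lay on both sides of 0, from -0.0043 to 0.07. Cks2, a small Cdk-binding protein, had probes at -0.03 and 0.09, and levels of 15.76 and 15.71 against 15.65 and 15.88 for the brighter probe, so its groups overlapped.

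Among genes of the spindle checkpoint and anaphase, the median was -0.22 over 7 genes. Ube2c, the ubiquitin-conjugating enzyme of the anaphase promoting complex, had levels of 14.71 and 14.25 in the autoreactive channels and 15.01 and 15.13 in the others. The channels were apart, and the ratio was -0.58 ± 0.17 (limma adjusted p = 0.116). Cdc20, the activator of that complex, had ratios of -0.01 and -0.45. The checkpoint proteins differed: Bub1 had -0.15 and -0.56 and Bub3 -0.19 and -0.25, while Mad2l1 had -0.04 and 0.27 for its brighter probe and -0.14 and 0.12 for the other. Levels of the brighter Mad2l1 probe were 13.89 and 13.63 against 13.93 and 13.36, and the means of its probes, 0.12 and -0.0071, lay on both sides of 0. Pttg1, securin, had 0.25 and -0.22 with a mean of 0.02 ± 0.15, its levels being 15.54 and 15.01 against 15.28 and 15.22. Cdca3, which promotes mitotic entry, had 0.05 and -0.24. The 3 tested probes of Bub3 had means between -0.46 and -0.04, and another was not well above background in any channel.

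Centromere and passenger genes had a median of -0.03 over 5 genes, with 0.13 on array 1 and -0.26 on array 2. Relative to equally bright probes their median was -0.41. Cenpf, a kinetochore protein of G2 and mitosis, had levels of 14.17 and 14.07 against 14.44 and 14.71. Its channels were apart, and its ratio was -0.46 ± 0.14 (limma adjusted p = 0.135). The kinetochore motor Cenpe had -0.15 and -0.59, and all 3 of its probes had means between -0.39 and -0.37. Cenpa, the centromeric histone, was the only member above 0 on both arrays, with levels of 14.01 and 13.97 against 13.88 and 13.82. Its ratio was 0.14 ± 0.12 (limma adjusted p = 0.512), although its second probe had -0.09. The passenger proteins Birc5 (survivin) and Cdca8 (borealin) were both positive on array 1 (0.38 and 0.18) and negative on array 2 (-0.26 and -0.24). Birc5 had a mean of 0.06. For Cdca8 the levels were 16.31 and 16.17 against 16.14 and 16.41, a mean of -0.03 ± 0.15, while its 2 dimmer probes gave -0.44 and -0.31.

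Among spindle motors and assembly factors, all 7 tested genes were below 0 on both arrays, with a median of -0.42 (-0.25 and -0.60 by array) and a range of -0.58 to -0.25. Of all genes, 35.4% were below 0 on both arrays. None of the 7 passed the adjusted test. An unadjusted p under 0.05 on the lower side was found for 6, against 12.3% of all genes. Kif4, a motor on chromosome arms, had levels of 13.91 and 13.38 against 14.24 and 14.20, with a ratio of -0.58 ± 0.16 (limma adjusted p = 0.0988). Kif20a, a central spindle motor, had 14.73 and 14.20 against 15.03 and 15.05, with -0.57 ± 0.17 (limma adjusted p = 0.116). Kif23, the motor of centralspindlin, had 13.89 and 13.52 against 14.14 and 14.39, with -0.56 ± 0.18 (limma adjusted p = 0.137). In these 3 motors both autoreactive channels lay below both others, as in 22.4% of all genes. A second probe of each gave -0.49, -0.62 and -0.52. Prc1, which bundles microtubules between the separating chromosomes, had ratios of -0.31 and -0.53, and Tpx2, the activator of Aurka, -0.24 and -0.58. The microtubule depolymerase Kif2c had -0.18 and -0.60. Kif11, which pushes the spindle poles apart, had -0.04 and -0.45, its other probes having means of -0.61 and -0.15. The only probe of Hmmr, a spindle protein, was an outlier spot on array 1 and was not tested; on array 2 its level was 9.81 in the autoreactive and 10.24 in the non-autoreactive channel.

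Genes of chromosome structure had a median of -0.32 over 5 genes, all with a mean below 0, against 50.3% of all genes. Top2a, the topoisomerase that untangles sister chromatids, had levels of 14.14 and 13.29 against 14.46 and 14.35. Both autoreactive channels were lower, much more so on array 2. The ratio was -0.69 ± 0.19 (limma adjusted p = 0.107), with -0.57 and -0.34 from its other probes. The probe at -0.34 was not well above background in the autoreactive channel of array 2. Condensin subunits ranged from -0.0090 ± 0.14 for Smc4 over -0.32 for Smc2 to -0.37 for Ncapd2. Levels of Smc4 overlapped between groups (16.19 and 16.01 against 16.05 and 16.17), and its dimmer probe gave -0.38. Mki67, the proliferation marker that coats mitotic chromosomes, had the largest gap between probes of a gene, 0.49. Its brightest probe had levels of 16.81 and 16.42 against 16.53 and 16.99, a ratio of -0.15 ± 0.21, and the other 14.88 and 14.33 against 15.07 and 15.40, a ratio of -0.63 ± 0.21. Only for the second did both autoreactive levels lie below both others.

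All 3 cytokinesis genes were below 0 on both arrays, against 35.4% of all genes, with a median of -0.43. Racgap1, the partner of Kif23 in centralspindlin, had levels of 13.13 and 12.38 against 13.50 and 13.35. The channels were apart, with a ratio of -0.67 ± 0.17 (limma adjusted p = 0.0901) and -0.39 from its second probe. Anln, the contractile ring protein anillin, had ratios of -0.32 and -0.54. Ect2, the exchange factor that starts the furrow, had -0.26 and -0.48 for its brighter probe, with levels of 13.71 and 13.42 against 13.97 and 13.90, while its dimmer probe had 0.0070.

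**Figure D2:**
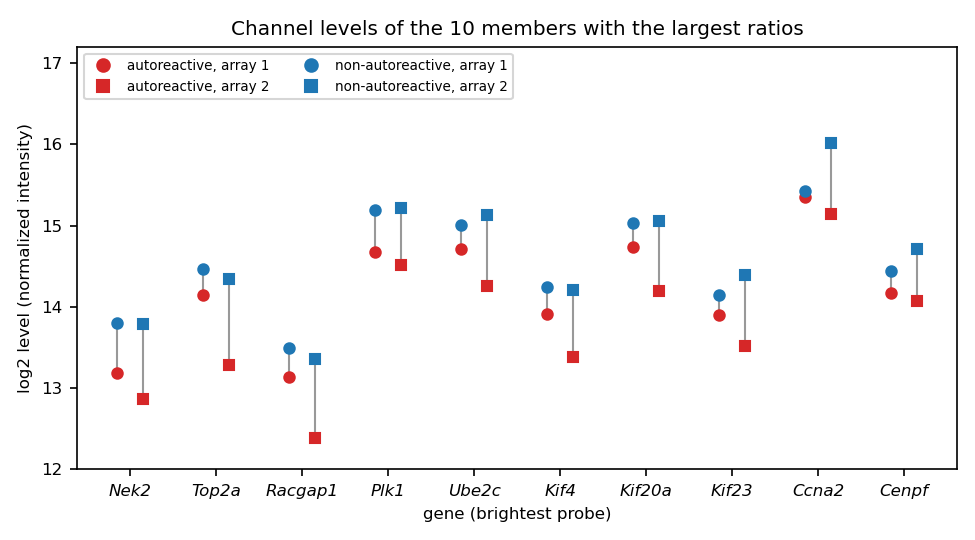
Log2 levels after loess and scaling between arrays for the 10 members with the largest ratios, in each channel: red for autoreactive, blue for non-autoreactive, circles for array 1 and squares for array 2, joined within an array. The red symbol lies below its blue partner in every pair, from 0.07 for Ccna2 on array 1 to 1.06 for Top2a on array 2.

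Different probes of a gene usually gave the same side. Of the 24 members with several tested probes, 19 had every probe below 0 and 5 (Cdc25b, Cenpa, Cks2, Ect2 and Mad2l1) had probes on both sides. The median gap between a gene's highest and lowest probe was 0.12, within a range of 0.017 to 0.49. Over all 73 member probes, 64 were below 0 on the mean and 51 on both arrays, against 49.1% and 34% of all probes. The members lie on 15 chromosomes.

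The ratio of a probe depended on its brightness, so each member was set against the 500 tested probes nearest to it in mean log2 level. Brightness differs between probes and is no measure of abundance between genes. The members were bright: by the brightest probe of a gene their median level was 14.3, against 10.7 for all genes. Over all member probes it was 13.1, against 10.1 for all probes. The brightest probes on the array ran high after loess: the median ratio of all probes was -0.04 at levels of 13 to 15, 0.14 at 15 to 16 and 0.71 at 16 to 17. Of the 760 genes at a level of 15 or more, 23.4% were called higher. Against equally bright probes the members' median difference was -0.20 on array 1, -0.55 on array 2 and -0.37 for the mean. On the mean 36 of 39 lay below the median of their neighbours, against 50.7% of all genes, and on both arrays 33, against 36.1%. The median member stood at percentile 11.4 of its neighbours. Under the 10th percentile were 15 members and under the 25th 30, against 10.9% and 25.9% of all genes.

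This comparison changed the picture for the brightest members. The 12 members at a level of 15 or more had a median ratio of -0.09, while all genes at those levels had 0.23. All 12 were below their neighbours on the mean, against 44.1% of all genes at those levels. Cdca8 had a ratio of -0.03 where its neighbours had a median of 0.47, which placed it at percentile 16.4. Smc4 stood at percentile 18.8, Mki67 at 11, Birc5 at 20 and Ccnb2 at 27.2. The other 3 members were above their neighbours on the mean: Cenpa at percentile 78.2, Mad2l1 at 73.2 and Cdc25b at 55.6. At the other end Nek2 and Top2a stood at percentile 2.2, Racgap1 at 2.8, Plk1 at 3 and Ube2c at 3.2.

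**Figure D3:**
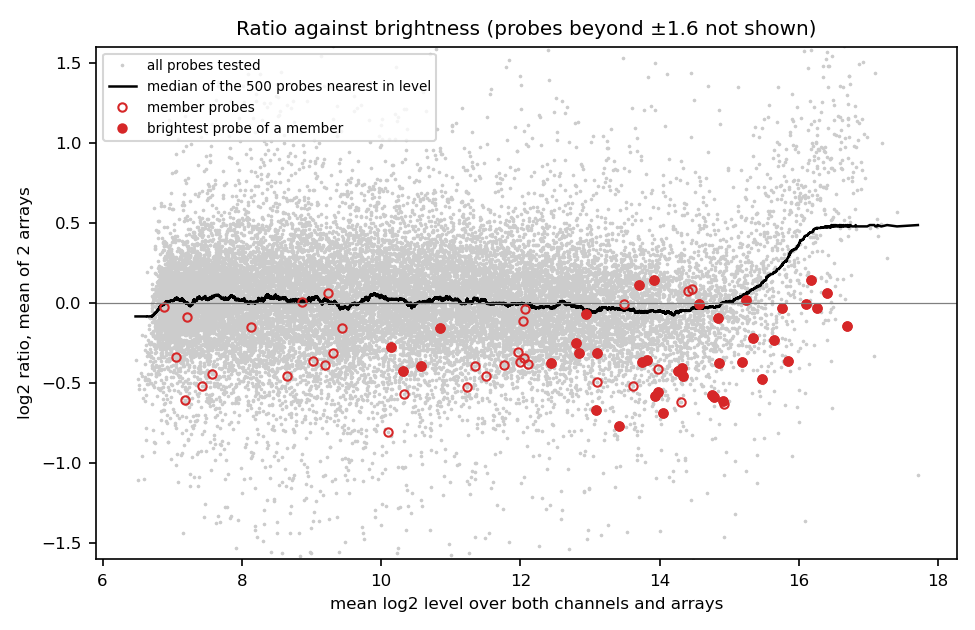
The mean log2 ratio of the 2 arrays (vertical) against the mean log2 level over channels and arrays (horizontal): grey dots are tested probes, the black line the median of the 500 probes nearest in level, red circles the probes of mitotic and G2 genes, filled for the brightest probe of a gene. The black line climbs above level 15, and 36 of the 39 filled circles lie below the median of their neighbours.

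The sign of the members' ratios depended on the centring, while their place among equally bright probes moved little. With median centring on all gene spots in place of loess, all 39 had a positive ratio, with a median of 0.62, but so did most genes, whose median was 0.58 and of which 65.8% were called higher. With median centring on the probes tested, the members' median was 0.08 against 0.05 for all genes, and 13 members were called higher against 18.5% of all genes. With the log ratios that the authors deposited, 37 of 39 were below 0 and the median was -0.42. Set against their neighbours, the members' median difference was -0.37 after loess, -0.41 with the deposited ratios and -0.36 under both median centrings. In each, 32 or 33 of 39 lay below on both arrays. Both median centrings differ only by a constant per array, so they had to agree. Loess differs from them by a smooth function of brightness, which neighbours share. The agreement was thus largely built in and is no check of the normalization. The count of members called lower stayed small throughout. It was 1 without background correction and with offset 16 (2.76% and 2.63% of all genes called lower). It was 0 with the deposited ratios (2.04%), median centring on all gene spots (2.54%) or on tested probes (16.6%), no filter on dim probes (0.885%) and separate channels (0.457%). Nek2 and Plk1 were both called with probes above background in both channels (2.79%), a trended and robust variance (2.86%), the mean over the probes of a gene (2.41%) and ratios relative to the 500 nearest probes (3.04%). Relative to the 100 nearest probes, Cdca8, Ncapd2 and Mki67 joined them (4.07%); the last pair of settings was chosen after seeing the data.

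The arrays differed in size. For 36 of 39 members the ratio on array 2 was lower than on array 1, against 52.1% of all genes. Ratios of the members on the 2 arrays correlated with a Pearson coefficient of 0.65 and a Spearman coefficient of 0.70 across the 39 genes, against 0.71 and 0.61 across all genes, which share the arrays and are not independent.

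Promoter letters and ratios were set side by side. The 24 tested members with CHR letters had a median ratio of -0.37, from -0.69 to 0.15, and the 9 without had -0.03, from -0.77 to 0.12. The ranges overlap, since Nek2 has no such letters and Ccnb2 has them. Several members without the letters have bright probes, and relative to equally bright probes the medians lay closer, at -0.40 with and -0.30 without. For CCAAT the medians were -0.36 in 28 members with and 0.02 in 5 without. Relative to equally bright probes they were -0.36 and -0.40. For E2F they were -0.37 in 5 members with and -0.33 in 28 without, or -0.35 and -0.38 relative to equally bright probes. Birc5, Mad2l1 and Pttg1 have neither CHR nor CCAAT letters, and none of these 3 had a negative mean. With the deposited ratios, though, Birc5 had -0.35 and Pttg1 -0.10, and relative to equally bright probes they had -0.42 and -0.05.

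Other lists of cell cycle genes give the surroundings. A further list of 56 G2 and M phase genes had a median of -0.34 (-0.18 and -0.52 on arrays 1 and 2). Of these, 47 were below 0 on both arrays, against 35.4% of all genes. The test called 2 of them lower, a share near the 2.61% of all genes, and 0 higher. Knl1, the scaffold on which Bub1 is recruited to kinetochores, had levels of 10.59 and 10.55 against 11.38 and 11.67 and a ratio of -0.95 ± 0.14 (limma adjusted p = 0.0187). Arhgap11a had 12.65 and 12.23 against 13.37 and 13.41 and -0.95 ± 0.15 (limma adjusted p = 0.0260). In both genes the channels were apart. The call of Arhgap11a was lost with the deposited ratios (adjusted p = 0.054) and without the filter on dim probes (0.057), and those of both genes with median centring on all gene spots (-0.31 for Knl1 and -0.11 for Arhgap11a) and with separate channels (0.076 and 0.102).

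The transcription regulators of the programme (23 genes: FoxM1, B-Myb, MuvB, E2F, DP, Rb and NF-Y families) had a median of -0.13 and 1 call, on the higher side. This share was near the 3.48% of all genes called higher. Tfdp2, a dimer partner of E2F proteins, had levels of 11.41 and 11.21 against 10.61 and 10.12. Its ratio was 0.95 ± 0.13 (limma adjusted p = 0.0177), its other probes gave 0.73 and 1.16, and the call was lost with separate channels (adjusted p = 0.133). Among 13 genes of the anaphase promoting complex (its subunits and its partner enzyme Ube2s), the median was 0.01 and none was called. Their largest ratio was that of Anapc5, at 0.55 ± 0.13 (limma adjusted p = 0.068), where a second probe gave -0.37. Its brightest probe stood at percentile 54.6 of equally bright probes, and its ratio was 0.14 with the deposited ratios. Members were left out of all these cell cycle lists, so the cohesin and condensin list lacks Smc2, Smc4 and Ncapd2. Of the 9 other cohesin and condensin subunits tested none was called, with a median of -0.01. The largest ratio was that of Smc3, a cohesin core subunit, at -0.41 ± 0.12 and at -0.23 by its other probe.

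The 40 genes of DNA replication, active in S phase, had a median of -0.19 (-0.09 and -0.25). Of these, 23 were below 0 on both arrays, against 35.4% of all genes, and none was called. Their largest ratio was that of Pcna, the polymerase clamp, with levels of 16.97 and 16.65 against 16.26 and 16.18. Its ratio was 0.59 ± 0.13 (limma adjusted p = 0.062), but among equally bright probes it stood at percentile 58. The 11 G1 cyclins and kinases had a median of -0.26 and no call; Cdk6, a kinase of G1, had -0.15 and -1.52 by its brightest probe, while the means of its other probes were -0.17 and -0.19. Of the 5 tested Cdk inhibitors, 1 was called higher, Cdkn1b (p27), against 3.48% of all genes. Cdkn1b had levels of 11.42 and 11.82 against 10.75 and 11.21 and a ratio of 0.64 ± 0.12 (limma adjusted p = 0.0403). Its groups did not overlap, but its other probes gave 0.36 and -0.35, and the mean over all 3 was 0.22 (adjusted p = 0.331). The call was also lost with the deposited ratios (0.062), offset 16 (0.052), no filter on dim probes (0.051) and separate channels (0.315). Cdkn2a and Cdkn2b were not well above background in any channel. The 13 tested genes of the DNA damage checkpoint had a median of -0.10 and no call, with Chek2, a checkpoint kinase, largest at -0.52 ± 0.12 and at -0.13 by its other probe. The lists were not tested against each other.

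Markers of other cells are given beside these results. The sort takes B220+ cells, which include plasmacytoid dendritic cells. The 7 markers of these cells were all below 0 on both arrays, against 35.4% of all genes. Their median was -0.73 on array 1 but -2.33 on array 2. The log2 of their summed level was 15.99 and 15.84 in the autoreactive and 16.20 and 16.63 in the non-autoreactive channels. Such sums are set mostly by the brightest markers and do not count cells. For these 7 markers the median level was 9.36 and the highest 15.77. The medians were 0.06 and -1.28 for 6 NK cell markers, -0.19 and -0.70 for 8 T cell markers, 0.08 and -0.72 for 10 myeloid markers and -0.52 and -0.49 for 8 erythroid markers, so that all of these medians but the erythroid one were lower on array 2. No marker of these lists that was measured was below background in every channel. On the same scale, summed levels were 13.29 and 12.27 against 13.33 and 13.66 for NK cells, 13.60 and 13.43 against 13.74 and 13.80 for T cells, 19.00 and 18.80 against 18.72 and 19.18 for myeloid cells and 15.13 and 14.87 against 15.49 and 15.35 for erythroid cells.

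Markers of B lineage stages went in both directions. Of 9 pro-B and pre-B markers, 3 were called lower and 2 higher. For this and the following lists, the shares over all genes were 2.61% lower and 3.48% higher. The medians of the pro-B and pre-B list on arrays 1 and 2 were -0.33 and -0.86. Vpreb1 and Igll1, the surrogate light chain genes of dividing pre-B cells, had ratios of -1.74 and -1.45 (limma adjusted p = 0.00531 and 0.00966), and Arpp21 -1.34, whereas Vpreb3 had 0.85 and Il7r, the IL-7 receptor, 0.68. The 6 markers of transitional and mature B cells had medians of -1.33 and -1.47, with 4 called lower. The 9 general B lineage markers had -0.27 and -0.11, with 3 called lower and 1 higher, and the 5 plasma cell markers 0.50 and -0.12, with 2 called in each direction. Summed levels of the pro-B and pre-B list were 17.68 and 17.58 in the autoreactive and 17.55 and 17.31 in the non-autoreactive channels. The part of other cells and of B cell stages in the ratios of the mitotic genes was not tested.

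**Figure D4:**
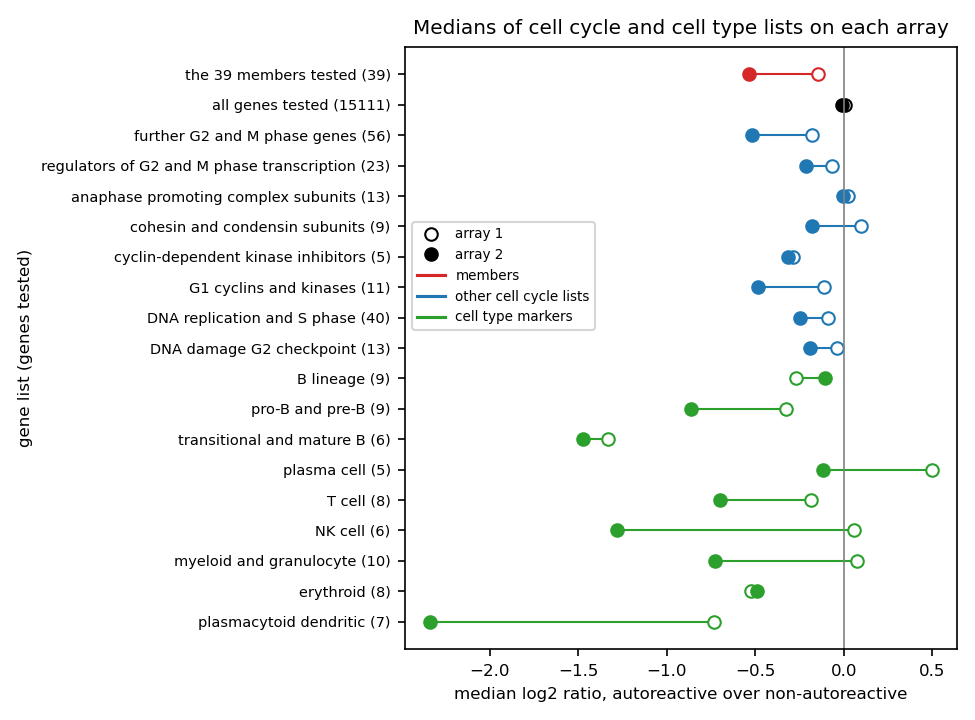
The horizontal axis is the median log2 ratio of each gene list, with the number of tested genes in brackets; open circles are array 1 and filled circles array 2. The 39 members (red) and the 56 further G2 and M phase genes shift from -0.15 and -0.18 on array 1 to -0.53 and -0.52 on array 2, and the plasmacytoid dendritic markers (green) from -0.73 to -2.33.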

How the data were processed

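The authors deposited Agilent scanner files, 1 per array, which give the mean intensity of each spot and the median intensity of its local background in both channels, per the file headers from Feature Extraction 9.5.1.1. They also hold its deposited log10 ratio (Cy5 over Cy3), made after that program's own background subtraction and dye normalization, and the series' value table repeats it. RNA input was 0.5 ug per sample, per the labels.

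Background was corrected in limma 3.58.1 (R 4.3.3) by normexp with an offset of 50, followed by loess within arrays, with control and outlier spots weighted 0. Outlier spots were removed, spots of a probe averaged, and a probe was tested if at least 1 channel of each array was well above background. Ratios were tested against 0 with lmFit and eBayes, two-sided (1 residual and 5.08 prior degrees of freedom), adjusted over all 22623 tested probes. A gene was read from its brightest tested probe. Levels are loess values scaled between arrays (Aquantile). Probe names came from the file or RefSeq (GRCm38.p6): 22951 probes by main accession, 131 by another, 6582 by current symbol and 3073 by unique synonym, while 8437 kept the file's name. The limma test and the search for brightness neighbours were run on simulated data. The ratios simulated for limma held no dye or brightness trend, so the normalization was not checked. Figures used matplotlib 3.10.9.

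The members and all lists were chosen with earlier results of these data known. Full values are given for called members, the 10 with the largest and 5 with the smallest absolute ratio, members whose probes differ in sign and members not measured. In other cell cycle lists they are given for called genes (at most 4) or else the largest ratio; other members and the markers named beside them are given in brief. As alternatives, offset 16, no background correction, the deposited ratios, median centring, other filters, the mean over probes, separate channels, trended and robust variance, and each array alone were tried. Ratios relative to the 500 or 100 probes nearest in brightness were added after seeing the data.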

Additional observations from a re-analysis of the deposited data

How the results depend on the processing

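Of the 39 members, 1 was called lower; 0 were with the deposited ratios, either median centring, no filter on dim probes and separate channels, and 2 with both channels above background, trended variance, the mean over probes and ratios relative to the 500 nearest probes, where Plk1 joined Nek2. Relative to the 100 nearest, 5 were (Plk1, Nek2, Cdca8, Ncapd2 and Mki67). Called higher were 33 with median centring on all gene spots (65.8% of all genes) and 13 with it on tested probes (18.5%), where the members' median was 0.62 and 0.082, beside 0.58 and 0.047 for all genes. Leaving out an array gave medians from -0.53 to -0.15, with no test. Signs are given for the 18 members with full values alone; by setting, other members turned too (26 of 39 were above 0 with median centring on tested probes, against 5 with loess). Median centring on all gene spots turned the sign of Ccna2 (0.76), Cdc25b (1.08), Cdca8 (1.32), Cenpf (0.60), Cks2 (1.24), Ect2 (0.59), Kif20a (0.54), Kif23 (0.44), Kif4 (0.40), Nek2 (0.14), Plk1 (0.53), Racgap1 (0.19), Smc4 (1.32), Top2a (0.31) and Ube2c (0.53). On tested probes it turned Ccna2 (0.22), Cdc25b (0.55), Cdca8 (0.79), Cenpf (0.062), Cks2 (0.71), Ect2 (0.053), Kif20a (0.0036) and Smc4 (0.79), and Nek2 was not called (-0.40, adjusted p = 0.062). Leaving out replicate 1 or replicate 2 in turn, 6 small ratios of these 18 changed sign: Cdc25b (-0.12 to 0.11), Cdca8 (-0.24 to 0.18), Cks2 (-0.16 to 0.11), Smc4 (-0.16 to 0.14), Mad2l1 (-0.038 to 0.27) and Pttg1 (-0.22 to 0.25). Cdc25b also turned relative to the 500 (0.029) and 100 (0.042) nearest probes and with the mean over probes (0.043), Cks2 with that mean (0.030), and Pttg1 with the deposited ratios (-0.099), offset 16 (-0.0053) and relative to the 500 (-0.044) and 100 (-0.037) nearest probes. The cause of these changes was not tested. The ratio within an array already pairs the channels. No further pairing of pools was possible because the labels number the autoreactive pools only.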
